A study of Mus musculus with 22 samples.

Results

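The genes described are 10 imprinted genes: Grb10, Igf2r, Airn, Dlk1, Meg3, Plagl1, Ndn, Magel2, Nnat and Impact. They were found by symbol in both deposited count tables. All 10 were among the 37991 genes listed for the Tet1 cross, and all 10 were among the 17567 genes that passed the filter on low counts. RNA had been sequenced from sorted mouse primordial germ cells (PGCs), from which oocytes and sperm descend. The Tet1-KO and Tet1-WT embryos came from matings of Tet1-het GOF18ΔPE-EGFP parents, so both genotypes carried the germ cell reporter. E10.5 embryos were not separated by sex, and E12.5 and E14.5 embryos were split into females and males. This gave 10 groups of 2 libraries, each library being RNA pooled from 2 to 6 embryos (1000 to 8000 cells). A further 2 wild-type E10.5 libraries came from MF1 females mated with GOF18ΔPE-EGFP males (600 to 1000 cells), and their RNA was isolated with another kit. No label says whether libraries of a group came from separate litters, so p-values measure the spread between these libraries only.

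Imprinted genes are transcribed mainly from 1 parental copy, chosen by DNA methylation that was placed in the egg or sperm. PGCs erase these marks while they colonise the gonad, and TET1, which oxidises methylated cytosine, has been linked to that erasure. Many genes of the family act on fetal growth and are expressed in embryonic mesenchyme, which surrounds the PGCs. The tables hold 1 count per gene and sum both parental copies, so they show RNA levels and not which copy was used.

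Total counts ranged from 9.62 to 25.9 M reads in the Tet1 cross and were 59.42 and 66.92 M reads in the MF1 cross. Levels are given in CPM, counts scaled to a common library total by TMM factors, and in the order replicate 1, replicate 2. The E12.5 and E14.5 Tet1-KO columns carry no distinct numbers and are called column A and column B in file order. Tet1 itself was lower in every Tet1-KO library than in either Tet1-WT library of the same stage and sex at E12.5 and E14.5. Its E10.5 values were 134 and 76.8 CPM (Tet1-WT) and 44.5 and 102 CPM (Tet1-KO). Replicate 2 labelled Tet1-KO thus lay above replicate 2 labelled Tet1-WT, and E10.5 libraries are called by their labels below. The summed level of 12 germ cell markers was between 1479 and 1810 CPM in the E10.5 libraries labelled Tet1-WT. It was 4098 to 6269 CPM in those labelled Tet1-KO and at least 5054 CPM in every later group. In E12.5 females it ran from 6998 to 7820 CPM in Tet1-WT and, overlapping, from 6968 to 7031 CPM in Tet1-KO. In E12.5 males it ran from 5054 to 6112 CPM in Tet1-WT and, without overlap, from 6984 to 7046 CPM in Tet1-KO.

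The upstream windows of 4 members are shown because Grb10 and Meg3 fell in E12.5 Tet1-KO germ cells of both sexes and Dlk1 in those of females, while Igf2r, the most evenly expressed member, passed the test in no Tet1-KO comparison. Each is the 250 bases before a RefSeq start on GRCm38.p6, written 5′ to 3′ on the gene's strand, with CG dinucleotides, the sites of DNA methylation, in capitals. Grb10 is at chr11:12037421-12037670 on the minus strand and Igf2r at chr17:12769707-12769956 on the minus strand. Dlk1 is at chr12:109452573-109452822 on the plus strand and Meg3 at chr12:109540746-109540995 on the plus strand. No window overlaps an annotated exon.
Grb10: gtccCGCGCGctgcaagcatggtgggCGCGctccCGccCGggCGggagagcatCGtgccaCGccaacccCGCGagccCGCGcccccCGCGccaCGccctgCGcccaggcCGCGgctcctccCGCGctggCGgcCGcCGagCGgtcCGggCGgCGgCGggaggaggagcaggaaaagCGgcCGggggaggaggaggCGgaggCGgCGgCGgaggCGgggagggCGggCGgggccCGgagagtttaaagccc
Igf2r: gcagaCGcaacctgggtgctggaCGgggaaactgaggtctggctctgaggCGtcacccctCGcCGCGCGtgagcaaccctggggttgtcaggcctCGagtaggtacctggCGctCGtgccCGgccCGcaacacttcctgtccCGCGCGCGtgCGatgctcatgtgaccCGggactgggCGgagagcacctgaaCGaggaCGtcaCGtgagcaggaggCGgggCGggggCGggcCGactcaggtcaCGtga
Dlk1: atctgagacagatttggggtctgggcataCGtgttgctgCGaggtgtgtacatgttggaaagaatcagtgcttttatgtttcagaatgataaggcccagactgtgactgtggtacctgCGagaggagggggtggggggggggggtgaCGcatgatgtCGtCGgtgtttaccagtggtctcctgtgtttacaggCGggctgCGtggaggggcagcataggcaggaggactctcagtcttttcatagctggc
Meg3: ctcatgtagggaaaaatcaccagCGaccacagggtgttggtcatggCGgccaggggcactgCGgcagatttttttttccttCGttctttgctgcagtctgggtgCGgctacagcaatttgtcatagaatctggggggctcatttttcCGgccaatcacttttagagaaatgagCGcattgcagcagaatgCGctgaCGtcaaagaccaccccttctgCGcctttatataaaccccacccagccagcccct
The Grb10 window holds 40 CG dinucleotides and the Igf2r window 27, while those of Dlk1 and Meg3 hold 8 and 10. The median of all 32851 windows in the RefSeq table was 6. A second Grb10 start on the same strand, chr11:12027972-12028221, has 8. RefSeq windows were found for 9 of the 10 members. The letters TGCCGC, the core that the imprint-guarding factor ZFP57 recognises, were searched on both strands. They occur in 2 of 11 member windows, those of Meg3 (shown) and Plagl1, and in 8.68% of all windows of that length.

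The mesenchyme markers Nr2f2, a nuclear receptor, and Col3a1, a fibrillar collagen, served as a gauge of RNA from somatic cells, though they mark mesenchyme only. Their summed level was 903 and 1138 CPM in E10.5 Tet1-WT and 232 and 514 CPM under the Tet1-KO label. At E12.5 it ran from 343 to 552 CPM in female Tet1-WT and from 19.2 to 21.8 CPM in female Tet1-KO. In males it ran from 516 to 727 CPM and from 87.9 to 123 CPM. At E14.5 it was between 4.02 and 12.8 CPM in every library. Over a longer list of 17 mesenchyme markers, 8 fell in E12.5 Tet1-KO females, where 1.15% of all genes were called lower. In males 5 fell, where 0.939% of all genes did. The list holds the 2 gauge genes, which fell in both sexes. At E14.5 at most 3 of the 17 were at 0 in both libraries of a group. Lists for other somatic cells differed. In E12.5 females 6 supporting cell markers summed to 20.7 CPM in both Tet1-WT libraries and 2.48 to 4.23 CPM in Tet1-KO. There 6 endothelial markers summed to 298 to 431 CPM in Tet1-WT and 334 to 404 CPM in Tet1-KO. In E12.5 males, too, the supporting sum lay lower in Tet1-KO and the endothelial sums overlapped. In such bulk RNA, fewer mesenchymal cells and less RNA per mesenchymal cell cannot be told apart. The gauge was thus lower in every Tet1-KO library at E10.5 and E12.5 than in Tet1-WT of the same stage and sex. At E14.5 it was low throughout, and in males it lay higher in Tet1-KO (6.84 to 12.8 CPM) than in Tet1-WT (4.397 to 5.43 CPM).

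**Figure D1:**
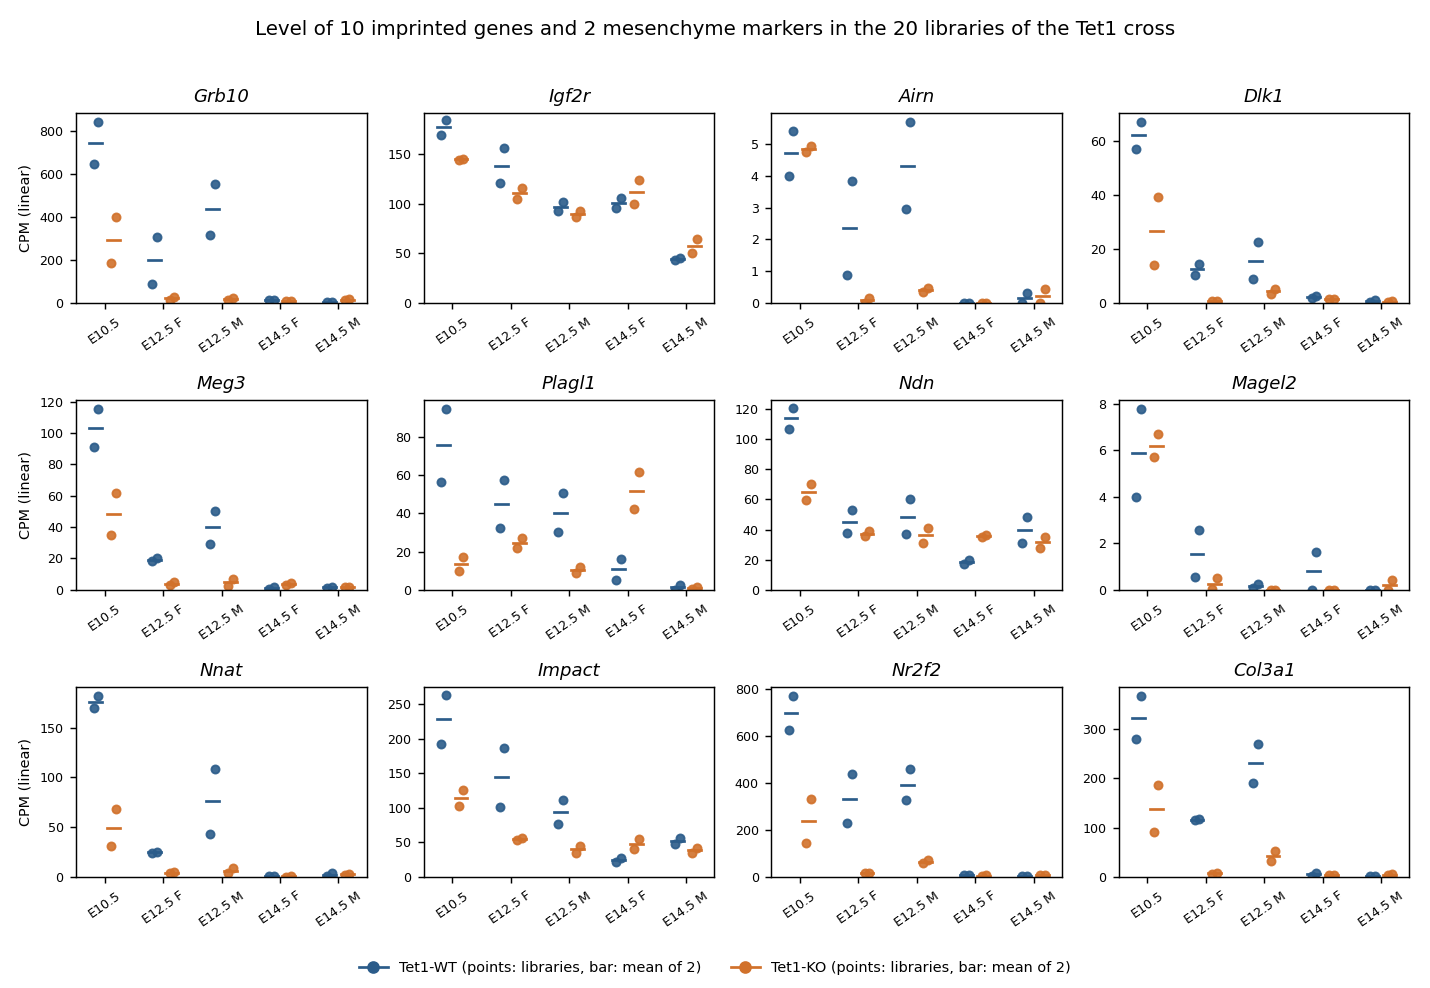
Level in CPM on a linear axis from 0 (vertical, scaled per gene) by stage and sex (horizontal; F female, M male) for the 10 imprinted genes and the markers Nr2f2 and Col3a1. Points are libraries and bars are means of 2. Grb10, Dlk1, Meg3 and Nnat stand near 0 at E14.5 as both markers do, while Igf2r lies between 42.95 and 184 CPM in all 20 libraries.

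Across the 5 Tet1-KO against Tet1-WT comparisons, falls among the 10 genes were called at E10.5 and E12.5 and 1 rise at E14.5. Calls are at a Benjamini-Hochberg adjusted p under 0.05 over all genes in edgeR's quasi-likelihood test. At E10.5 1 member fell in the libraries labelled Tet1-KO, Impact, where 4.7% of all genes were called lower. In E12.5 females 4 fell, Grb10, Dlk1, Meg3 and Impact, against a background of 1.15% called lower, and in E12.5 males 3 fell, Grb10, Meg3 and Nnat, against 0.939%. In E14.5 females 1 rose, Ndn, where 3.36% of all genes were called higher. In the same libraries 9 of 12 germ cell markers rose (median log2 1.39 over the 12), while 2 of the 12 had a log2 difference below 0. Among those that rose were Tfap2c, from a mean of 9.18 to 57.6 CPM, and Prdm14, from 5.25 to 26.7 CPM. The summed level of the 12 did not rise, at 5684 to 5887 CPM in Tet1-WT and 5440 to 5824 CPM in Tet1-KO. The part of these markers in the levels of Ndn, Plagl1 and Impact there was not tested. In the E10.5 libraries labelled Tet1-KO, too, 9 of the 12 rose. In E14.5 males edgeR called none (2 had an unadjusted p under 0.05, and DESeq2 called none), against 0.102% of genes called in either direction.

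Before any test, 8 of the 10 members lay lower in both E10.5 libraries labelled Tet1-KO than in both Tet1-WT libraries, as did 25.1% of all genes. In E12.5 females 9 of 10 did, against 24.5% of all genes, and in E12.5 males 8 of 10, against 26.6%. In E14.5 females 4 lay higher without overlap and 3 lower, against 21.6% and 29.3% of all genes. In E14.5 males 2 lay higher and 1 lower, against 24.9% and 18.7%.

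The median log2 difference of the 10 genes was -1.04 at E10.5, -2.44 in E12.5 females and -2.5 in E12.5 males, beside 0 to -0.02 over all genes tested. With Magel2 in E12.5 males at the bound that 0 counts allow, the male median was -1.91. At E14.5 it was 0.08 in females and 0.26 in males. The gauge had medians of -1.4, -4.33 and -2.54 in the same 3 early comparisons. When the gauge entered the fit as a covariate, none of the 10 was called at E10.5 or E12.5, and Impact and Ndn were called in E14.5 females. Tet1-WT and Tet1-KO libraries did not overlap on the gauge in any of the 5 comparisons. In E14.5 females they nearly met, at 1.881 (Tet1-WT replicate 1) and 1.879 (Tet1-KO column B) on a log2 CPM scale. In the other comparisons the fit could not compare genotypes at a like gauge. The standard error of Grb10 in E12.5 females rose from 0.53 to 1.43. In E12.5 males Grb10 stayed at a log2 of -2.96 (SE 0.90) and Meg3 at -2.13 (SE 0.99), both uncalled (adjusted p = 0.996, edgeR). There Dlk1 stood at 0.095 and Impact at 0.11. The share of all genes called in that fit is not given, so the lack of calls says nothing particular about the 10. The part of somatic RNA in these falls was not tested beyond that fit, which took in mesenchyme markers only.

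**Figure D2:**
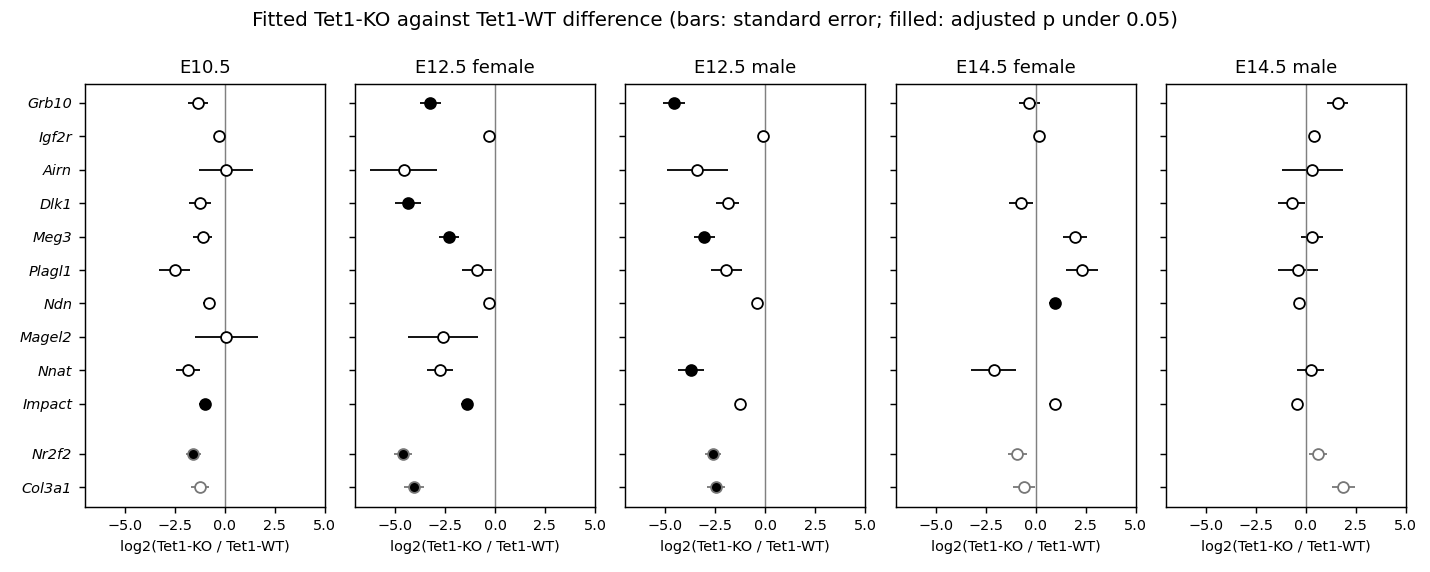
Fitted log2 ratio of Tet1-KO to Tet1-WT (horizontal) for each gene (vertical) in the 5 stage and sex groups, with bars for the standard error. Filled points passed an adjusted p of 0.05. Pairs in which a group held 0 counts in both libraries are left out (Airn and Magel2 in E14.5 females, Magel2 in both male groups). The 3 early panels lie mostly to the left of 0, together with Nr2f2 and Col3a1.

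Grb10 encodes an adaptor protein that restrains insulin and IGF receptor signalling. Its E10.5 level was 841 and 647 CPM for Tet1-WT, and 188 and 399.9 CPM where the label read Tet1-KO. The E10.5 groups did not overlap, yet the log2 difference of -1.34 (SE 0.48) was not called (adjusted p = 0.0979, edgeR). E12.5 female Tet1-WT held 87.7 and 308 CPM and female Tet1-KO 14.4 and 27.8 CPM. Male Tet1-WT held 554 and 318 CPM and male Tet1-KO 22.5 and 14.3 CPM. Grb10 fell by 3.24 on the log2 scale in E12.5 females (SE 0.53, adjusted p = 0.00494). Leaving out Tet1-WT replicate 2 (log2 -2.02, adjusted p = 0.0658) or Tet1-KO column A (0.0914) ended the call. It fell by 4.57 in males (SE 0.56, adjusted p = 0.00314), which was no longer called without Tet1-KO column B (0.0897). Grb10 levels of the female and male Tet1-KO libraries overlapped. The gauge sum was 19.2 to 21.8 CPM in those females and 87.9 to 123 CPM in those males, and its part was not tested beyond the covariate fit. The male minus female difference in the effect was -1.33 (SE 0.69, adjusted p = 0.889, edgeR) and was not called.

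By E14.5 Grb10 was low in all 8 libraries. It was at 13.1 and 12.8 CPM in female Tet1-WT, 10.95 and 10.03 CPM in female Tet1-KO, 3.98 and 6.47 CPM in male Tet1-WT and 15.0 and 16.5 CPM in male Tet1-KO. The male groups did not overlap, but the log2 difference of 1.58 (SE 0.53) was not called (adjusted p = 0.279, edgeR). Col3a1 differed in the same direction there, by 1.86 (adjusted p = 0.24). In Tet1-WT, Grb10 fell between E12.5 and E14.5 by 3.93 on the log2 scale in females (SE 0.55, adjusted p = 8.71e-05) and by 6.36 in males (SE 0.61, adjusted p = 1.11e-05). Both calls held without any 1 of the 4 libraries. In order of group means, E10.5 Tet1-WT came first and apart from the others. E12.5 male Tet1-WT, the E10.5 group labelled Tet1-KO and E12.5 female Tet1-WT followed and overlapped their neighbours.

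Igf2r encodes the receptor that carries IGF2 to the lysosome, and Airn is the noncoding RNA that silences it in cis on the paternal copy. Igf2r spanned 42.95 to 184 CPM over the 20 libraries, the narrowest range relative to its level among the 10 genes. Its E10.5 values were 184 and 170.0 CPM with the Tet1-WT label, and 145.2 and 144.6 CPM with the Tet1-KO label. E12.5 females held 121 and 156 CPM (Tet1-WT) and 116 and 105 CPM (Tet1-KO), and E12.5 males 102 and 92.7 CPM (Tet1-WT) and 92.9 and 86.8 CPM (Tet1-KO). None of these differences was called. The log2 difference was -0.29 (SE 0.17, adjusted p = 0.307) at E10.5, -0.33 (SE 0.17, adjusted p = 0.459) in E12.5 females and -0.11 (SE 0.17, adjusted p = 0.827) in E12.5 males, all by edgeR. Nr2f2 fell by 4.61 and 2.62 on the log2 scale in the same E12.5 libraries.

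At E14.5 Igf2r separated by sex. Female Tet1-WT held 95.9 and 106 CPM and male Tet1-WT 45.3 and 42.95 CPM, and Igf2r was lower in males by a log2 of -1.19 (SE 0.18, adjusted p = 0.000112, edgeR). Tet1-KO held 125 and 99.8 CPM in females and 64.7 and 50.1 CPM in males. In Tet1-WT males Igf2r fell by 0.87 on the log2 scale from E10.5 to E12.5 (SE 0.17, adjusted p = 0.00516) and by 1.14 from E12.5 to E14.5 (SE 0.18, adjusted p = 0.000678). The first of these calls was lost without E12.5 male replicate 2 (adjusted p = 0.0872). The female differences of -0.36 (adjusted p = 0.197) and -0.46 (adjusted p = 0.0643) were not called. Neighbouring groups from the second to the eighth in order of mean Igf2r overlapped one another.

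Airn was between 4.01 and 5.40 CPM in all 4 E10.5 libraries of the Tet1 cross, whatever their label. In E12.5 Tet1-WT it stood at 0.88 and 3.84 CPM in females and 5.69 and 2.95 CPM in males. In Tet1-KO it stood at 0.17 and 0 CPM in females and 0.34 and 0.47 CPM in males. The groups did not overlap at E12.5, though neither difference was called (adjusted p = 0.24 in females and 0.324 in males, edgeR). Airn had no count in any of the 4 E14.5 female libraries. In Tet1-WT females it fell from E12.5 to E14.5 (adjusted p = 0.0178, edgeR), by at least 10.1-fold at 3 counts per library. That call was lost without E12.5 replicate 2 (adjusted p = 0.0834), E14.5 replicate 1 (0.141) or E14.5 replicate 2 (0.0787). Airn runs antisense through the Igf2r gene body without sharing an exon with it, and the strand option of the counting is not given in the sources used here.

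Dlk1 and Meg3 are neighbours on chromosome 12. Dlk1, expressed from the paternal copy, encodes a membrane protein related to Notch ligands, and Meg3 is a noncoding RNA of the maternal copy. Both fell in E12.5 Tet1-KO females, Dlk1 from 14.3 and 10.52 CPM to 0.58 and 0.63 CPM, and Meg3 from 19.97 and 18.5 CPM to 2.94 and 5.00 CPM. The log2 change was -4.34 for Dlk1 (SE 0.66, adjusted p = 0.00304, edgeR) and -2.29 for Meg3 (SE 0.51, adjusted p = 0.0377). Dlk1 was no longer called without Tet1-KO column A (adjusted p = 0.0771) or column B (0.0751). The Meg3 call did not survive the loss of any 1 of the 4 libraries. Its adjusted p became 0.0544 or 0.15 on dropping Tet1-WT replicate 1 or 2, and 0.301 or 0.176 on dropping Tet1-KO column A or B. Nr2f2 and Col3a1 fell by 4.61 and 4.06 in these libraries.

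Meg3 in E12.5 males was 50.3 and 29.1 CPM (Tet1-WT) and 7.07 and 2.54 CPM (Tet1-KO). It fell by 3.06 in log2 terms (SE 0.52, adjusted p = 0.00941, edgeR), and leaving out Tet1-WT replicate 1 (0.129) or Tet1-KO column B (0.185) ended the call. Male Dlk1 stood at 22.4 and 8.96 CPM against 5.13 and 3.402 CPM. The groups did not overlap, and the log2 difference of -1.88 (SE 0.57) was not called (adjusted p = 0.139). The Tet1-KO effect on Dlk1 was -4.34 in females and -1.88 in males, and their difference of 2.46 (SE 0.83) was not called either (adjusted p = 0.806, edgeR). Over the 10 genes edgeR called no male minus female difference at E12.5 (1 had an unadjusted p under 0.05, and DESeq2 called none), as for all genes (0.0%).

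E10.5 Dlk1 was 66.8 and 57.1 CPM under the Tet1-WT label and 13.98 and 39.1 CPM under the Tet1-KO label. Meg3 was 115 and 91.2 CPM against 35.2 and 61.9 CPM. For both genes Tet1-KO replicate 1 was the lowest of the 4 libraries, as it was for Nr2f2 (141 CPM) and Col3a1 (91.2 CPM). Neither difference was called (adjusted p = 0.174 for Dlk1 and 0.162 for Meg3, edgeR). At E14.5 Dlk1 was at most 2.57 CPM in any library. Meg3 was 0.45 and 1.48 CPM in female Tet1-WT and 4.09 and 2.79 CPM in female Tet1-KO, a log2 difference of 1.96 (SE 0.59) that was not called (adjusted p = 0.0612, edgeR). Male Meg3 lay between 1.28 and 2.0 CPM in all 4 libraries. Rian and Mirg, noncoding RNAs of the same cluster, had no match by symbol, and exons of Meg3 overlap those of 4 other annotated genes.

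Nnat encodes a small membrane proteolipid, neuronatin. Its levels followed the same order of stages, with 182 and 169.8 CPM at E10.5 for Tet1-WT, and 31.2 and 67.7 CPM for the label Tet1-KO. E12.5 female Tet1-WT held 24.0 and 24.9 CPM and Tet1-KO 3.15 and 4.30 CPM. Male Tet1-WT held 109 and 43.2 CPM and Tet1-KO 8.42 and 3.20 CPM. In E12.5 males Nnat fell by 3.72 in log2 terms (SE 0.67, adjusted p = 0.0137, edgeR). It lost the call on dropping Tet1-WT replicate 1 (adjusted p = 0.19), Tet1-KO column A (0.0568) or column B (0.235). In females the log2 difference was -2.73 (SE 0.65, adjusted p = 0.053) and was not called. At E14.5 no library exceeded 3.12 CPM. Nnat lies within Blcap on the other strand.

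Plagl1 encodes a zinc finger transcription factor that restrains proliferation. As with Meg3, its level in E14.5 females was higher in Tet1-KO, at 42.4 and 61.5 CPM, than in Tet1-WT, at 4.88 and 16.3 CPM. All Tet1-KO values were above all Tet1-WT values, but the log2 difference of 2.32 (SE 0.79) was not called (adjusted p = 0.0965, edgeR). Left-out libraries gave adjusted p between 0.085 and 0.528, and DESeq2 gave 0.105. The gauge sum was 8.76 to 11.8 CPM in those Tet1-WT libraries and 4.02 to 7.47 CPM in Tet1-KO, while neither gauge gene was called (Nr2f2 adjusted p = 0.274, Col3a1 0.622) and Col3a1 overlapped between the genotypes. In E14.5 males Tet1-WT held 2.38 and 0.040 CPM of Plagl1 and Tet1-KO 1.23 and 0.49 CPM.

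At the earlier stages every Tet1-KO library held less Plagl1 than its Tet1-WT counterparts. E10.5 values were 94.6 and 56.6 CPM (Tet1-WT) and 17.1 and 9.64 CPM (Tet1-KO label) (log2 -2.5, SE 0.78, adjusted p = 0.0592, edgeR). Here replicate 2 labelled Tet1-KO was the lowest, and its gauge was above that of replicate 1. The part of somatic RNA in Plagl1 was not tested beyond the covariate fit. E12.5 females held 57.5 and 32.5 CPM (Tet1-WT) and 27.1 and 21.6 CPM (Tet1-KO), and males 50.5 and 30.0 CPM and 11.9 and 9.01 CPM, with neither called (adjusted p = 0.702 and 0.262). In Tet1-WT males Plagl1 fell by 5.16 on the log2 scale from E12.5 to E14.5 (SE 0.93, adjusted p = 0.00214, edgeR). At E14.5 it was lower in male than in female Tet1-WT by a log2 of -3.21 (SE 0.89, adjusted p = 0.0131, edgeR). The sex call was lost without female replicate 2 (adjusted p = 0.133) or male replicate 2 (0.054), and the log2 difference became -2.11 in both cases.

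Ndn and Magel2 encode MAGE family proteins of the imprinted region on chromosome 7 that is linked to Prader-Willi syndrome. Ndn held a moderate level throughout, 17.3 to 121 CPM over the 20 libraries. E10.5 libraries held 107 and 121 CPM (Tet1-WT) and 70.4 and 59.6 CPM (Tet1-KO label), which was not called (log2 -0.81, SE 0.27, adjusted p = 0.0728, edgeR). At E12.5 genotypes overlapped in both sexes, at 52.7 and 37.9 CPM (Tet1-WT) and 35.6 and 38.98 CPM (Tet1-KO) for females, and 60.0 and 36.98 CPM and 41.3 and 31.3 CPM for males.

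In E14.5 females Tet1-WT held 17.3 and 19.7 CPM of Ndn and Tet1-KO 34.9 and 36.7 CPM. It rose by a log2 of 0.96 (SE 0.28, adjusted p = 0.0495, edgeR). The call was lost with the size factors of DESeq2 (adjusted p = 0.055) and on dropping each library in turn. The adjusted p was then 0.337 or 0.13 (Tet1-WT replicate 1 or 2 dropped) and 0.0681 or 0.213 (Tet1-KO column A or B dropped). With the gauge as a covariate it remained called (log2 1.1, SE 0.31, adjusted p = 0.0477, edgeR). The genotypes did not overlap on the gauge there, though Tet1-WT replicate 1 and Tet1-KO column B nearly met. In males Ndn was 31.3 and 48.3 CPM against 27.9 and 35.2 CPM. The male minus female difference in the effect was -1.29 (SE 0.39, adjusted p = 0.106, edgeR) and was not called. In Tet1-WT at E14.5 Ndn was higher in males by a log2 of 1.11 (SE 0.28, adjusted p = 0.00679), a call lost without female replicate 1 (0.0687) or male replicate 2 (0.0949). Magel2 was between 4.01 and 7.78 CPM at E10.5 and at most 2.58 CPM later, and 8 of the 20 libraries held no count of it. Of the imprinted genes near Ndn and Magel2, Peg12 rose in E14.5 Tet1-KO females (mean 49.8 against 16.9 CPM, log2 1.56, SE 0.38, adjusted p = 0.0238, edgeR). E14.5 male Tet1-KO held 80.6 and 95.5 CPM and male Tet1-WT 20.4 and 23.8 CPM, a larger log2 difference of 1.99 (SE 0.38) that was not called (adjusted p = 0.0654). The male minus female difference of 0.44 (SE 0.52, adjusted p = 0.803) was not called either.

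Impact encodes a regulator that holds back the translation-control kinase GCN2. E10.5 libraries held 193 and 263 CPM (Tet1-WT) and 102 and 126 CPM (Tet1-KO label), and Impact fell by 0.996 in log2 terms (SE 0.29, adjusted p = 0.0422, edgeR). That call was lost without Tet1-WT replicate 2 (adjusted p = 0.26) or Tet1-KO replicate 1 (0.17). E12.5 females held 101 and 187 CPM (Tet1-WT) and 53.1 and 55.5 CPM (Tet1-KO), and Impact fell by 1.41 (SE 0.29, adjusted p = 0.0244). The female call was lost without Tet1-WT replicate 2 (log2 -0.84, adjusted p = 0.378), Tet1-KO column A (0.173) or column B (0.242). E12.5 males held 112 and 75.5 CPM (Tet1-WT) and 43.8 and 34.8 CPM (Tet1-KO), a log2 difference of -1.25 (SE 0.29) that was not called (adjusted p = 0.0524, edgeR).

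At E14.5 Impact in Tet1-KO lay above Tet1-WT in females and below it in males. Female Tet1-WT held 20.4 and 27.4 CPM and Tet1-KO 39.7 and 54.3 CPM (log2 0.98, SE 0.29, adjusted p = 0.0575, edgeR). It was called with the gauge as a covariate (log2 1.38, SE 0.24, adjusted p = 0.00626) and by DESeq2 (adjusted p = 0.0195). The genotypes did not overlap on the gauge in these female libraries, though Tet1-WT replicate 1 and Tet1-KO column B nearly met. Male Tet1-WT held 46.5 and 55.8 CPM and Tet1-KO 34.6 and 41.6 CPM (log2 -0.43, SE 0.29, adjusted p = 0.669). The male minus female difference in the effect was -1.41 (SE 0.41, adjusted p = 0.101, edgeR) and was not called. Over the 10 genes edgeR called no such difference at E14.5 (5 had an unadjusted p under 0.05, and DESeq2 called 3), where 1.43% of all genes were called in either direction. Within Tet1-WT, Impact was higher in E14.5 males than in females by a log2 of 1.1 (SE 0.29, adjusted p = 0.0102), a call lost without female replicate 1 (0.113) or male replicate 2 (0.0597).

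**Figure D3:**
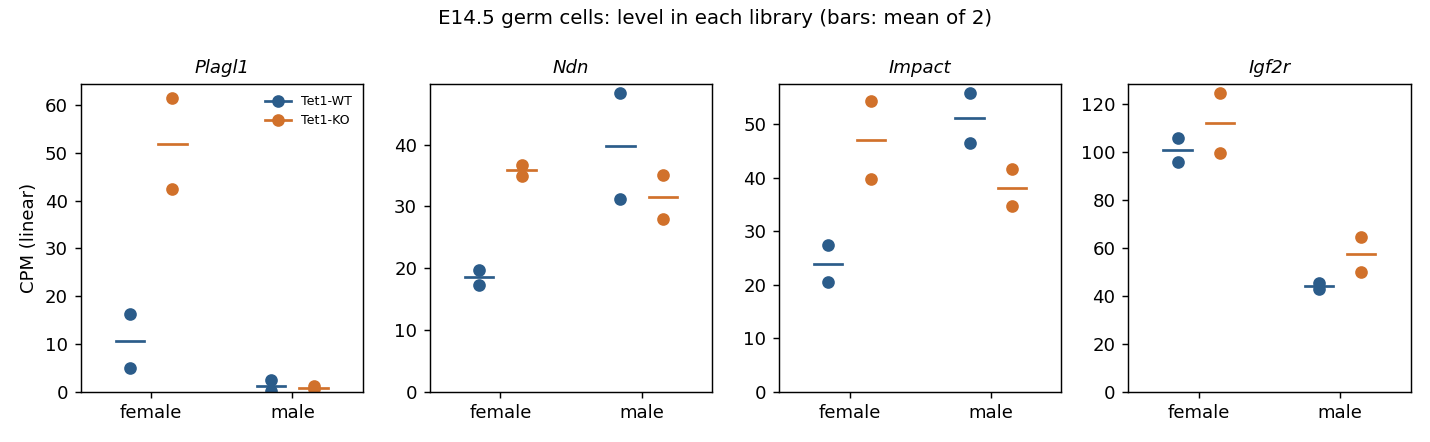
Level in CPM on a linear axis from 0 (vertical) of 4 imprinted genes in the E14.5 libraries, by sex (horizontal). Points are libraries and bars are means of 2. In females both Tet1-KO points of Plagl1, Ndn and Impact lie above both Tet1-WT points, and Igf2r lies lower in males than in females in both genotypes.

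Every call among the 10 genes between stages of Tet1-WT was a fall, and Magel2 was called in none of the 4 comparisons. Between E10.5 and E12.5 in Tet1-WT, 5 members fell in females (Grb10, Dlk1, Meg3, Ndn and Nnat), where 4.83% of all genes were called lower by edgeR. In males 4 fell (Igf2r, Dlk1, Ndn and Impact), where 3.05% were. Dlk1 fell by 2.32 in females (adjusted p = 0.0124) and by 1.98 in males (adjusted p = 0.0355), and Ndn by 1.33 (adjusted p = 0.0042) and 1.23 (adjusted p = 0.00928). Meg3 in females (log2 -2.42, SE 0.49, adjusted p = 0.00413) kept its call without any 1 library.

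The other calls of this interval were lost without 1 or more libraries. Without E12.5 female replicate 2, Dlk1 (adjusted p = 0.109), Ndn (0.0525) and Nnat (0.0525) were no longer called. Without E10.5 replicate 1, Grb10 (0.0781) and Dlk1 (0.0618) in females and Dlk1 (0.144) in males were lost, and without E12.5 female replicate 1, Grb10 (0.0954) was. Without E10.5 replicate 2, Dlk1 (0.1), Ndn (0.0609) and Impact (0.0947) were lost in males. Without E12.5 male replicate 2 all 4 male calls were lost, with adjusted p between 0.0872 and 0.328. These comparisons share the E10.5 libraries, whose summed germ cell markers were the lowest and whose gauge was the highest of all groups.

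Between E12.5 and E14.5 in Tet1-WT, 7 members fell in females (Grb10, Airn, Dlk1, Meg3, Ndn, Nnat and Impact), where 14% of all genes were called lower, and 6 fell in males (Grb10, Igf2r, Dlk1, Meg3, Plagl1 and Nnat), where 7.75% were. Nnat fell by 5.03 on the log2 scale in females (adjusted p = 0.000221, edgeR) and by 5.21 in males (adjusted p = 0.000303). Meg3 fell by 4.45 (adjusted p = 6.36e-05) and fell by 4.79 (adjusted p = 8.72e-05). Dlk1 fell by 2.48 (adjusted p = 0.00543) and fell by 4.24 (adjusted p = 0.000592), the female call being lost without E14.5 replicate 2 (0.0562). Impact fell by 2.6 in females (SE 0.31, adjusted p = 2.14e-05) and Ndn by 1.29 (SE 0.28, adjusted p = 0.00257). In males Impact (log2 -0.87, adjusted p = 0.0592) and Ndn (log2 -0.28, adjusted p = 0.544) were not called. Nr2f2 fell by 5.74 in females and 6.66 in males over the same interval, and its part in these falls was not tested.

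Between the sexes of Tet1-WT, edgeR called none of the 10 at E12.5 (5 had an unadjusted p under 0.05, and DESeq2 called none), where 0.575% of all genes were called in either direction. At E14.5, 2 members were higher in males (Ndn and Impact), where 14% of all genes were, and 2 were lower (Igf2r and Plagl1), where 14.1% were. The gauge sum was then 8.76 to 11.8 CPM in females and 4.397 to 5.43 CPM in males.

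The MF1 libraries set E10.5 PGCs with little mesenchymal RNA beside those of the Tet1 cross. Their gauge sum ranged from 18.8 to 26.99 CPM, against 903 and 1138 CPM in E10.5 Tet1-WT, and their summed germ cell markers from 5676 to 6093 CPM. All 10 members were lower in both MF1 libraries than in either E10.5 Tet1-WT library, as were 33.1% of all genes, and 1 was called, Dlk1, where 0.516% of all genes were called lower. Dlk1 stood at 1.45 and 2.25 CPM and fell by 5.07 in log2 terms (SE 0.51, adjusted p = 0.0429, edgeR fit of 4 libraries with 2 residual degrees of freedom). Cross, RNA kit, cell number and depth differ together between these groups and cannot be told apart.

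Grb10 stood at 122 and 68.3 CPM in the MF1 libraries, and Impact at 132 and 76.4 CPM. Igf2r stood at 56.4 and 66.2 CPM, Plagl1 at 21.2 and 12.2 CPM and Ndn at 19.6 and 56.2 CPM. Meg3 was 10.49 and 19.3 CPM, Nnat 10.4 and 23.5 CPM, Magel2 0.56 and 1.01 CPM and Airn 0 and 0.23 CPM. The E12.5 Tet1-KO female libraries had a like gauge sum, 19.2 to 21.8 CPM, and there Grb10 was 14.4 and 27.8 CPM, Igf2r 116 and 105 CPM and Nnat 3.15 and 4.30 CPM. These tables were scaled separately, and stage, sex and genotype differ too.

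Over the Tet1 cross, Grb10, Airn, Dlk1, Meg3 and Nnat were high in the libraries with a high gauge and low in those with a low one, as the plot against the gauge shows. On a log2 CPM scale the mean of the markers was 6.82 to 9.06 in E10.5 and E12.5 Tet1-WT libraries and those labelled Tet1-KO at E10.5, 3.14 to 5.93 in E12.5 Tet1-KO and 0.82 to 2.68 at E14.5. Since these ranges do not overlap and follow stage and genotype, no correlation of a member with the gauge is given. Within E14.5 the libraries again form sex and genotype groups. The gauge did not overlap between genotypes in either sex, though in females the nearest libraries stood at 1.881 and 1.879.

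**Figure D4:**
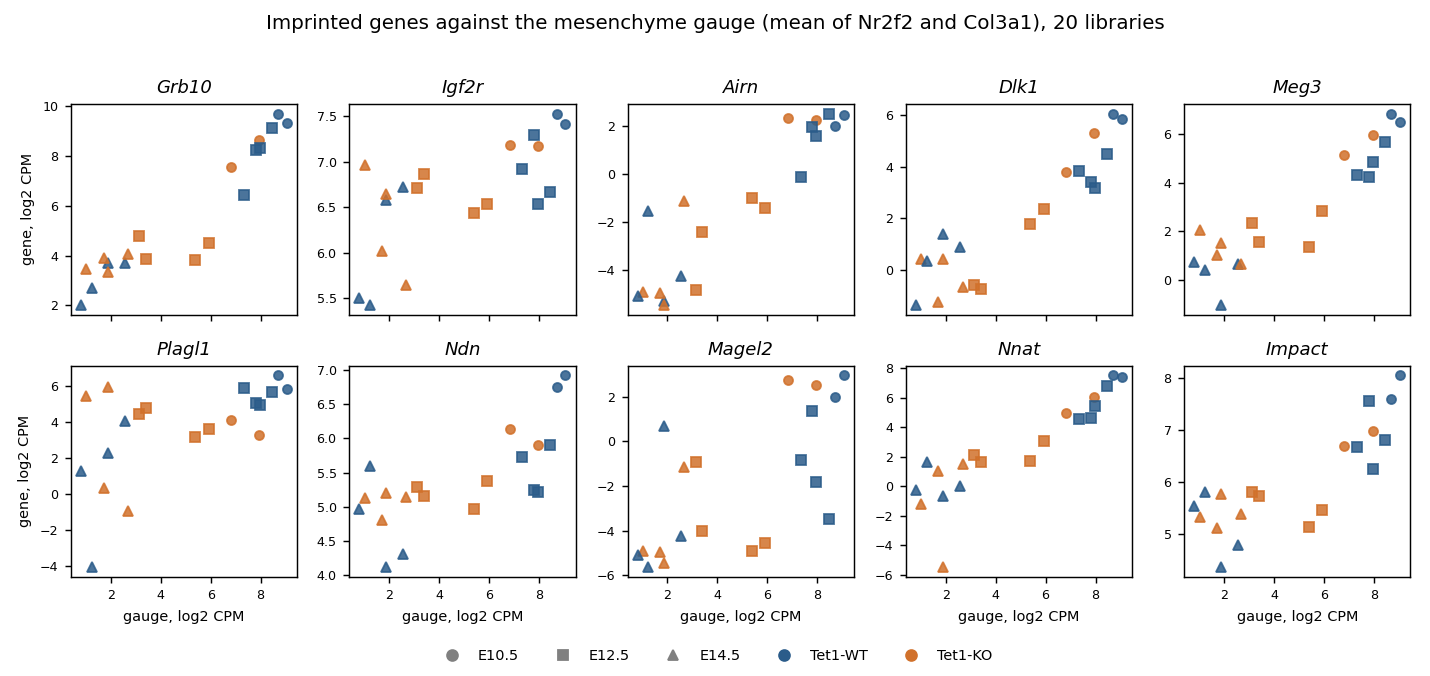
Log2 CPM of each imprinted gene (vertical) against the mean log2 CPM of Nr2f2 and Col3a1 (horizontal) in the 20 libraries of the Tet1 cross, with 0.5 counts added. Symbols give the stage and colours the genotype. The gauge runs from 0.82 to 9.06. Grb10, Dlk1, Meg3 and Nnat run from lower left to upper right, while Igf2r spans the narrowest range of levels.

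The genes with the likest patterns, by Pearson correlation of log2 CPM over the 10 group means among 9687 genes, are given as a description only. The points share libraries and stages. For Grb10 they were Dusp3 (r = 0.978), Myl9 (0.973) and Tcf7l2 (0.971). For Nnat they were Meis2 (0.985), Tmem119 (0.983) and Pdgfra (0.982), of which Meis2 and Pdgfra are on the list of mesenchyme markers. For Dlk1 they were Tpm4 (0.986), Phldb2 (0.984) and Gpc3 (0.977), and for Meg3 Rbmx (0.985), Myc (0.983) and Tmem98 (0.981). For Igf2r they were Fermt2 (0.986), Id2 (0.978) and Tmod3 (0.97), and for Plagl1 Dsc2 (0.967), Tapt1 (0.964) and Lpl (0.954). For Ndn they were Nisch (0.965), Arxes1 (0.959) and Shkbp1 (0.958), and for Impact Pkd2 (0.964), Slc25a24 (0.963) and Plin2 (0.963). Among the members, Igf2r was most like Plagl1 (r = 0.9), while Grb10 was most like Meg3 (0.959) and Ndn most like Impact (0.922).

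Other imprinted genes were counted from a list of 47, of which 44 matched and 41 were tested. In the E10.5 libraries labelled Tet1-KO 8 fell and 3 rose, where 4.7% of all genes were called lower and 4.1% higher. Asb4 fell (log2 -2.44, adjusted p = 0.00128, edgeR) and Herc3 rose (log2 2.61, adjusted p = 0.00254). In E12.5 Tet1-KO females 9 fell, where 1.15% of all genes were called lower, and none rose. Those that fell included H19 (log2 -2.63, adjusted p = 0.000671, edgeR) and Cdkn1c (log2 -2.98, adjusted p = 0.000826). In males 9 fell, where 0.939% of all genes did, among them Cd81 (log2 -1.58, adjusted p = 0.00575) and H19 (log2 -2.24, adjusted p = 0.00631). In E14.5 Tet1-KO females 3 rose, where 3.36% of all genes were called higher. They were Slc38a4 (log2 1.56, adjusted p = 0.00252, edgeR), Phlda2 (log2 2.29, adjusted p = 0.0137) and Peg3 (log2 0.86, adjusted p = 0.0393). Dcn fell, and the share of all genes called lower there is not given. In E14.5 males none of the 41 was called, where 0.102% of all genes were called in either direction. The median log2 difference of the 41 genes was -0.44 in E12.5 females and -0.67 in E12.5 males. For the 10 members it was -2.44 and -2.5 (-1.91 in males with Magel2 at its bound). Members and lists were chosen with earlier results of these data known, so the gap between these medians is description only. Of 18 listed imprinted neighbours 14 matched and 13 were tested, and the 1 call in the 5 Tet1-KO comparisons was Peg12 in E14.5 females, with its larger difference in males given above. Of 7 listed imprint guards and methylation enzymes, 1 fell in E12.5 Tet1-KO females, Zfp57 (log2 -3.72, SE 0.79, adjusted p = 0.029, edgeR). In the libraries labelled Tet1-KO at E10.5 also 1 fell, the maintenance factor Uhrf1 (log2 -1.43, SE 0.29, adjusted p = 0.00851, edgeR). The gauge was lower in the same libraries. From E10.5 Tet1-WT to MF1, where the gauge was also lower, mean Zfp57 was 98.4 and 3.83 CPM and Uhrf1 312 and 44.9 CPM. The part of somatic RNA in both genes was not tested. Levels per kilobase of exon allow only a rough comparison of genes. The lengths join all annotated exons of a gene, whichever transcripts were expressed, and Nnat may share reads with Blcap. E10.5 Tet1-WT held 96.2 CPM per kb of Nnat, 81.8 of Grb10, 44.5 of Impact, 30.9 of Ndn and 19 of Igf2r. In E14.5 female Tet1-WT, Igf2r led with 10.8 CPM per kb, followed by Ndn with 5.01 and Impact with 4.66, and Nnat was at 0.43.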

How the data were processed

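The authors deposited raw read counts per gene, 1 table for the 20 libraries of the Tet1 cross and 1 for the 2 MF1 libraries. cDNA was made from polyA RNA and amplified for 15 cycles per the labels' protocols. Trimmomatic was used, and the tools listed for mapping to mm9 and counting are Bowtie 0.12.8, TopHat2 2.0.2 and HTSeq 0.5.3p9, per the submitters' processing notes. The strand option is not given in the sources used here, so overlapping genes on opposite strands may share reads. Gene identifiers of the tables were given symbols from a reference table of gene names. Exon lengths came from GENCODE vM21, and promoter windows from RefSeq on GRCm38.p6.

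The tests used edgeR 4.0.16 under R 4.3.3. Genes passing filterByExpr (minimum count 10, minimum total 15) were scaled by TMM and fitted with 1 coefficient per group by the robust quasi-likelihood method. The 17567 genes of the Tet1 cross were fitted with 10 residual degrees of freedom (common biological coefficient of variation 0.46). MF1 and E10.5 Tet1-WT were fitted apart (15500 genes, 2 residual degrees of freedom). p-values were adjusted by Benjamini-Hochberg over all genes of a comparison, with a threshold of 0.05. SE is the log2 change over the root of F. Groups with 0 counts in both libraries were bounded at 3 counts per library, which covers counting error only, since PCR copies carried no molecular tag.

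Counts were simulated for the E12.5 female comparison (16951 genes), with changes placed only in well-counted genes and all others left equal. Of genes changed 2-fold 14% were called, of those changed 4-fold 66% and of those changed 8-fold 90%, with 3.6% false calls. Alternatives were DESeq2 1.42.0, its size factors in edgeR, no filter, the gauge as a covariate, leaving out each library, the replicate block and 1 fit of all 22 libraries. All 10 members were always named. Likeness took the 3 most correlated genes with a mean of at least 5 CPM, without pseudogenes and clone names. Up to 4 called genes of the other imprinted list were named. The members and lists were chosen with earlier results of these data known.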

Additional observations from a re-analysis of the deposited data

How the results depend on the processing

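The number of the 10 genes called is given here under each alternative. The share of all genes called under each alternative is not given, so these counts show only whether the calls held. At E10.5 (Tet1-KO against Tet1-WT, 1 called) it was 4 without the filter on low counts, 3 with DESeq2, 0 with the gauge as a covariate and 0 to 4 with 1 library left out. In E12.5 females (4 called) it was 0 with the gauge covariate, where Impact moved to a log2 of 0.91 (adjusted p = 0.947), and 0 to 3 with 1 library left out. In E12.5 males (3 called) it was 6 without the filter, 5 with DESeq2, 0 with the gauge covariate and 0 to 4 with 1 library left out. In E14.5 females (1 called) it was 0 with the size factors of DESeq2, 6 without the filter, 2 with the gauge covariate, 4 with DESeq2 and 0 to 1 with 1 library left out. In E14.5 males (0 called) it was 1 without the filter. For the male minus female difference in the Tet1-KO effect (0 called) it was 1 without the filter at E12.5, and 4 without the filter, 3 with DESeq2 and 0 to 1 with 1 library left out at E14.5. In Tet1-WT from E10.5 to E12.5 it was 3 to 5 in females (5 called) and 0 to 4 in males (4 called) with 1 library left out, and 8 in males without the filter. Between the sexes it was 2 without the filter at E12.5 (0 called), and 7 without the filter and 2 to 4 with 1 library left out at E14.5 (4 called). For MF1 against E10.5 Tet1-WT (1 called) it was 6 without the filter, 7 in 1 fit of all 22 libraries, 8 with DESeq2 and 2 to 9 with 1 library left out. The causes were not tested. In Tet1-WT from E12.5 to E14.5 the counts of 7 and 6 stayed within 1.5 times under every alternative run.

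Libraries with the same replicate number did not deviate together (r between -0.032 and 0.048 over 15 pairs of groups), so they share only a number. With the replicate block the MF1 comparison gave 4 calls in place of 1, with 1 residual degree of freedom, the E10.5 Tet1-KO comparison gave 1, and no count between Tet1-WT groups moved by over 1.5 times. The E12.5 and E14.5 Tet1-KO comparisons could not be blocked, since their Tet1-KO columns carry no numbers. Correlations with the gauge were computed but are not given, since the libraries fall into separate groups on it. With 2 libraries a group, 14% of 2-fold changes were called in the simulation, which covered 1 comparison. That share need not hold elsewhere, since Igf2r (log2 -1.19), Ndn (1.11) and Impact (1.1) were called between the sexes of E14.5 Tet1-WT.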
